A study of Oryzias latipes with 20 samples.

Results

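The comparison set brain tissue taken 150 days after a transition of medaka (Oryzias latipes) to conditions that the labels call LW against the same tissue taken at 120 days, with 3 libraries on each day. Each tissue piece comprised pituitary, hypothalamus and the ventral part of the telencephalon, and all fish of the series were held in a constant photoperiod. The 6 libraries belong to a series of 20, with 3 libraries on each of days 0, 7, 30, 90, 120 and 150 and 2 on day 60, and each library was a polyadenylated RNA library read by strand. Sex, age, strain and the number of fish per sample are not stated in the labels. FPKM is the number of fragments of a gene scaled by transcript length and library total. Every gene that averaged 1 FPKM or more over the 20 libraries was compared, which gave 15947 of the 22615 genes in the table. Replicate numbers follow the order of the samples and only name a library. Whether the samples come from different fish is not stated, so the p-values reflect sample-to-sample spread that may be technical.

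In a fish, the hypothalamus sends releasing factors and neurotransmitters to the pituitary through nerve fibres that enter the gland. The pituitary answers with hormones for the gonad (luteinising and follicle-stimulating hormone, which share an alpha subunit), for growth, for salt balance, for the thyroid and for the stress axis. Sex steroids made by the gonad, and oestrogen made in the brain itself by aromatase in radial glia, feed back on both levels. In fish of temperate waters this axis follows day length and season.

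Depth behind the values is unknown because FPKM keeps no read count. Total FPKM per library ran from 374770 to 405678 over the series. Markers of all 3 parts of the tissue were present: 21 of 25 telencephalon markers and 23 of 30 hypothalamus markers passed the filter on low values, and somatotropin, the growth hormone gene, reached 4892 FPKM. Of 59 markers of thalamus, midbrain and hindbrain, 12 passed too, so the filter alone does not show which regions each piece held. Replicate 2 of day 150 stood apart from the rest. Its mean rank correlation across genes with the other 19 libraries was 0.954, against 0.961 to 0.967 for each of those. It had 426 genes more than 1 log2 unit from the mean of its own day, against 289 to 392 in the 17 other libraries from days with 3. Changes are therefore given for each library and also without it.

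No gene passed the test between the 2 days. limma's moderated test on log2(FPKM + 1) called 0 of 15947 genes (0.0%) at an adjusted p of 0.05, and the smallest adjusted p was 0.302. At an unadjusted p under 0.05 there were 759 genes higher at day 150 (4.76%) and 665 lower (4.17%), together 8.93% of all. Without replicate 2 of day 150 these shares were 3.46% and 3.33%. The 3 libraries of day 150 lay wholly above the 3 of day 120 in 1031 genes (6.47%) and wholly below in 937 (5.88%). By chance, 5% of genes would be so placed in each direction. For the unadjusted p under 0.05, chance would give 5% over both directions together. The median difference over all genes was 0.0035 on the log2 scale, and the median of the standard errors of the single genes was 0.13. 92 genes had a mean more than 1 log2 unit higher and 58 more than 1 lower. What follows gives values and their spread, and none of the differences named passed the test unless a setting is named with it.

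**Figure D1:**
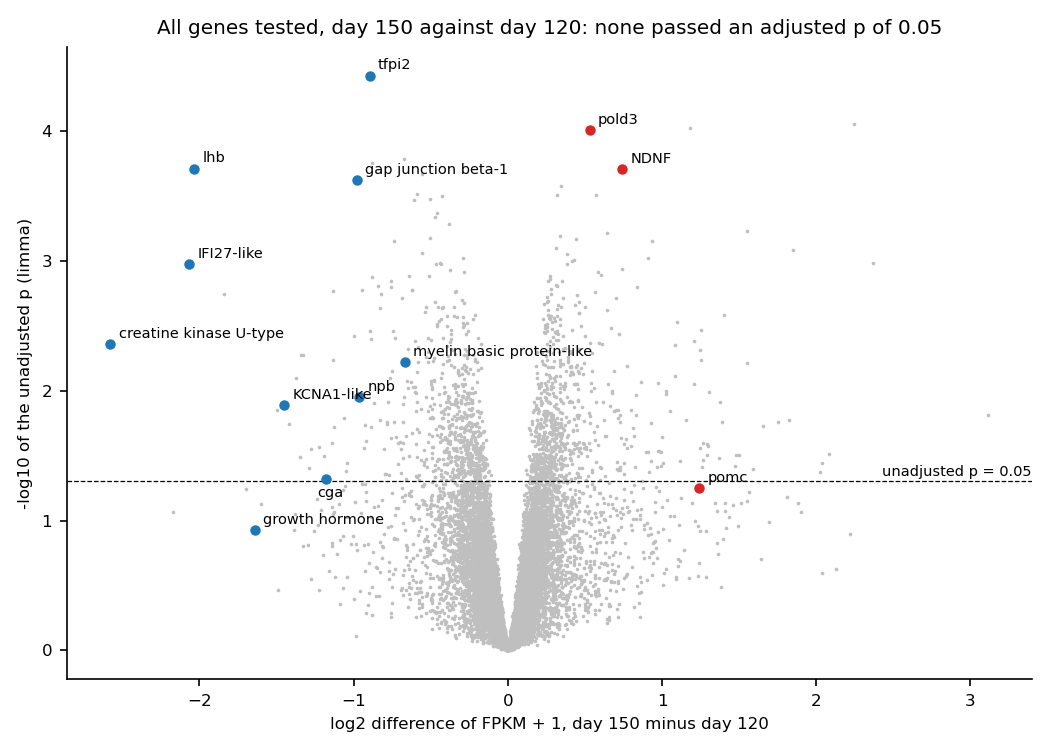
Each point is 1 of the 15947 genes tested, with the log2 difference of FPKM + 1 (day 150 minus day 120) on the horizontal axis and the negative log10 of the unadjusted limma p on the vertical axis, where the dashed line is an unadjusted p of 0.05. Coloured points carry names: lhb and a creatine kinase gene lie farther to the left than nearly all other genes with small p, and pomc lies to the right just under the line.

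The gonadotropin subunits stood lower at day 150, with lhb farthest apart. lhb, the beta subunit of luteinising hormone, read 169, 241 and 231 FPKM in the day 120 libraries and 32.8, 69.9 and 57.1 FPKM in those of day 150. The groups did not overlap, and all 3 day 120 values were above the highest of the 14 libraries of the other days, 142 FPKM, while the day 150 values fell inside their range. The difference was -2.03 ± 0.42 (log2, SE), and -2.26 without replicate 2. Its adjusted p of 0.302 was the smallest that any gene reached, a value shared by 18 genes with lhb among them. That p used spread pooled within each day over the 20 libraries, so days outside the comparison entered it. Among these was day 60, whose lhb values lay far apart, at 6.61 FPKM in replicate 1 and 34.2 FPKM in replicate 2. In tissue pieces such as these, fewer cells of a type and less RNA per cell cannot be told apart.

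cga, the alpha subunit shared by the gonadotropins and thyrotropin, gave 499.9, 658 and 628 FPKM at day 120 and 139, 277 and 458 FPKM at day 150. Again the groups did not overlap and the day 120 libraries were above the 14 other libraries, whose highest was 434 FPKM. Its difference was -1.18 ± 0.55 (log2, SE; adjusted p = 0.553). fshb, the beta subunit of follicle-stimulating hormone, was 183, 322 and 220.2 FPKM at day 120 and 58.6, 138 and 256 FPKM at day 150. Here replicate 3 of day 150 was higher than 2 of the day 120 libraries and the difference was -0.88 ± 0.62 (adjusted p = 0.697). Replicate 1 of day 150 was the lowest of the 6 for all 3 subunits.

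**Figure D2:**
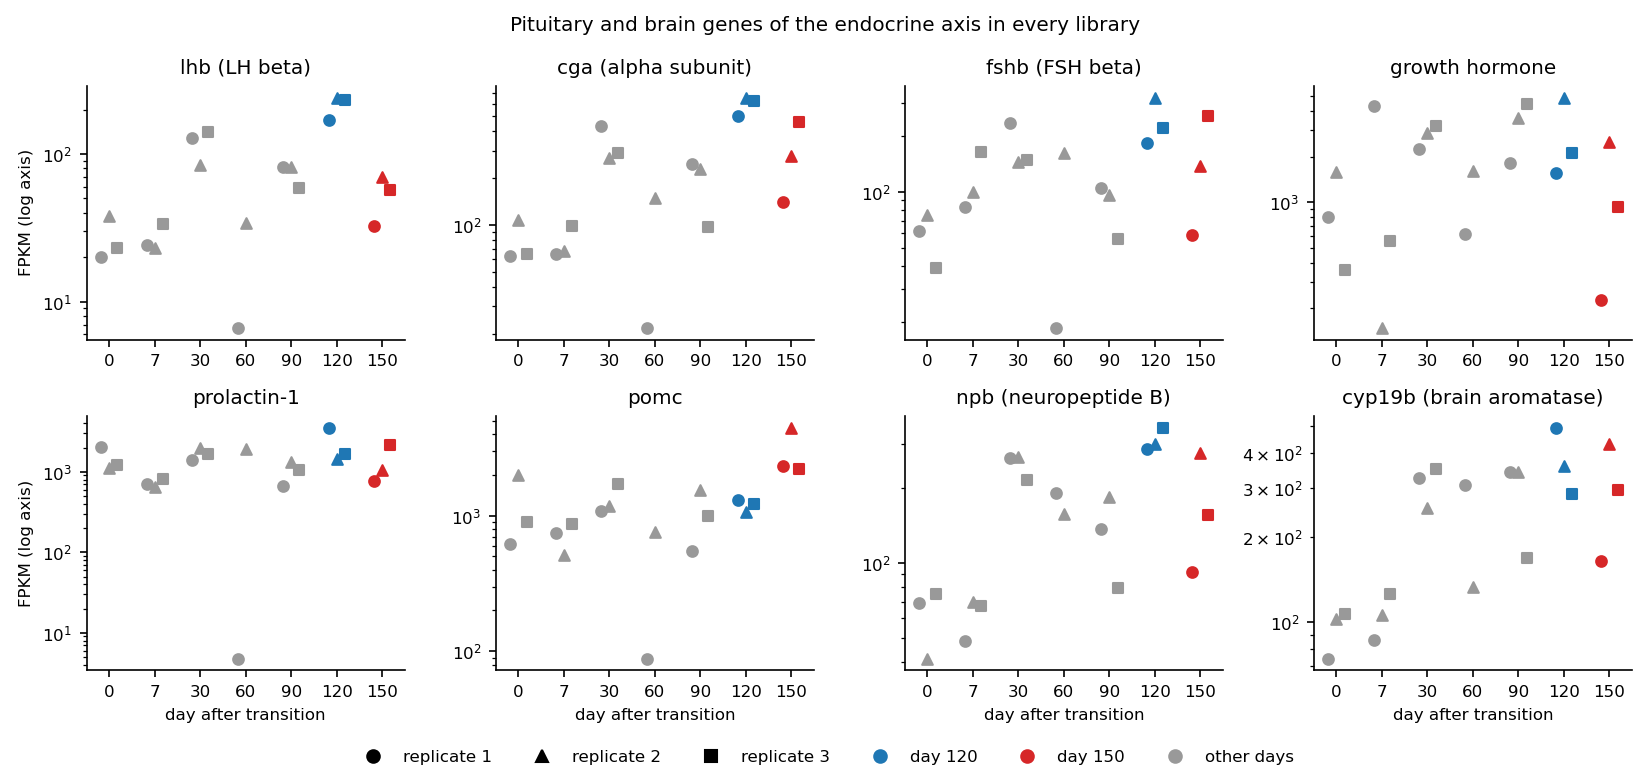
FPKM on a log axis in all 20 libraries by day, 1 panel per gene; blue marks day 120, red day 150 and grey the other days, and the marker shape gives the replicate. In the lhb and cga panels the 3 blue points lie above the 3 red ones, in that of pomc they lie lower than the red ones, and in the other panels the colours overlap or nearly meet.

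The other pituitary hormones did not share a direction. Somatotropin (LOC101171460) was 1565, 4892 and 2118 FPKM at day 120 and 228, 2501 and 936 FPKM at day 150, so replicate 2 of day 150 stood within the day 120 range. The difference was -1.64 ± 0.996 (adjusted p = 0.646), and -2.45 without that replicate. Prolactin-1 (LOC101172582), a hormone of freshwater adaptation in fish, was 3512, 1452 and 1679 FPKM at day 120 and 766, 1061 and 2182 FPKM at day 150. Its difference, -0.76, was smaller than its standard error of 1.26. Standard errors pooled the spread within each day over the 20 libraries, so they do not describe days 120 and 150 alone. Several pituitary hormone genes were low in day 60 replicate 1. Prolactin-1 read 4.79 FPKM there and 1910 FPKM in day 60 replicate 2. For lhb these values were 6.61 and 34.2 FPKM, and for pomc 88.6 and 760 FPKM. Somatolactin (LOC100049402), a hormone known only from fish, differed by -0.46 ± 0.68. The thyrotropin beta-like gene (LOC101171658) was 74.3, 26.8 and 42.8 FPKM at day 120 and 46.1, 76.3 and 61.7 FPKM at day 150, with overlapping groups.

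pomc was higher on average at day 150, as were the thyrotropin beta-like gene (0.44 ± 0.70) and pro-opiomelanocortin B (LOC101168338, 0.24 ± 0.25), whose groups overlapped. pomc, the precursor of corticotropin and melanotropin, read 1312, 1061 and 1221 FPKM at day 120 and 2320.1, 4420.3 and 2192 FPKM at day 150. All 3 day 150 libraries were above the other 17 libraries of the series, in which the highest value on days 0 to 90 was 1998 FPKM. The difference was 1.24 ± 0.60 (log2, SE; adjusted p = 0.577), and 0.92 without replicate 2, which was the highest. pcsk2, the convertase that cleaves pomc and other prohormones, was 154, 151 and 154 FPKM at day 120 and 161, 181 and 171 FPKM at day 150. Those 3 values were also above the highest of the 14 other libraries, 157 FPKM, although the difference was only 0.16 ± 0.07 (adjusted p = 0.518).

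Of the 13 pituitary hormone genes listed, 8 passed the filter on low values; none passed the test, 3 were higher on average at day 150 and 5 lower. Their median difference was -0.67, and -0.64 without replicate 2, beside 0.0035 for all genes. That median was -0.34 without replicate 1 of day 150 and -1.03 without replicate 3. The summed FPKM of these genes was 4376, 7632 and 4715 at day 120 and 3076, 7727 and 4353 at day 150, so the groups overlapped in the total. Over the 14 other libraries the sum ran from 784 to 6469 FPKM. The part that the amount of pituitary in each piece plays in single hormone genes was not tested.

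Among neuropeptides the differences were spread over few genes. Of 48 listed genes 41 were tested, none passed, 18 were higher and 23 lower on average, with a median of -0.13. At an unadjusted p under 0.05 there were 5 lower and 1 higher, beside 4.17% and 4.76% of all genes. The count of 5 was 2 without replicate 1 of either day and 3 without replicate 3 of day 120, and the median was -0.04 without replicate 3 of day 120 or replicate 1 of day 150. npb (the entry for neuropeptide B with the higher level), whose brain expression in medaka depends on oestrogen, was 287, 299 and 347 FPKM at day 120 and 92.3, 276 and 155 FPKM at day 150. The 3 day 120 values were above the 14 other libraries, and replicate 2 of day 150 lay just under the lowest of them. The difference was -0.97 ± 0.34 (adjusted p = 0.456) and -1.37 without replicate 2. The peptide YY-like gene LOC101160582 was 55.8, 55.6 and 100.6 FPKM at day 120 and 16.01, 61.0 and 44.1 FPKM at day 150. Replicate 2 of day 150 exceeded 2 of the day 120 libraries, and the difference was -0.93 ± 0.44 (adjusted p = 0.567). In peptide YY-A (LOC101155694), a relative of neuropeptide Y, values were 16.7, 9.98 and 11.2 FPKM at day 120 against 9.69, 5.40 and 1.12 FPKM at day 150, with a difference of -1.34 ± 0.42 (adjusted p = 0.411).

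A gene described as vasotocin-like, after the fish counterpart of vasopressin, is carried under the symbol oxt, and its identity was not tested. It read 111, 122 and 116 FPKM at day 120 and 95.4, 93.0 and 87.0 FPKM at day 150. Within each day the libraries were close, the groups did not overlap, and the day 120 values were again above the 14 other libraries, whose highest was 107 FPKM. The difference was -0.34 ± 0.16 (adjusted p = 0.565). vip, the gene of vasoactive intestinal peptide, was 39.7, 32.9 and 35.1 FPKM at day 120 and 22.7, 28.6 and 31.9 FPKM at day 150 (-0.37 ± 0.16, adjusted p = 0.516). grp, gastrin-releasing peptide, was 2.33, 3.19 and 2.33 FPKM at day 120 and 3.80, 4.40 and 3.87 FPKM at day 150, against at most 3.45 FPKM on the other days (0.48 ± 0.17, adjusted p = 0.466).

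The releasing factors for gonadotropins gave no common direction. gnrh1, whose neurons reach the pituitary in medaka, was 4.37, 19.4 and 9.54 FPKM at day 120 and 15.7, 14.7 and 13.3 FPKM at day 150. The day 150 libraries were close to each other and above the 14 libraries of days 0 to 90, while those of day 120 ran from near the lowest of these to above the highest. The difference was 0.57 ± 0.39 (adjusted p = 0.692). gnrh3, made in the terminal nerve of the ventral forebrain, was 30.3, 19.1 and 38.0 FPKM at day 120 and 28.1, 8.73 and 46.3 FPKM at day 150. Replicate 2 of day 150 was the lowest and replicate 3 the highest of all 20 libraries, and the difference of -0.29 became 0.35 without replicate 2. kiss-2, kisspeptin 2, was 6.72, 5.98 and 6.73 FPKM at day 120 and 6.02, 6 and 5.51 FPKM at day 150 (-0.13 ± 0.22).

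Steroid genes were mixed. cyp19b, brain aromatase, was 490.5, 359 and 286 FPKM at day 120 and 165, 430.0 and 296 FPKM at day 150, so that replicate 1 of day 150 alone lay below the day 120 range, and the difference was -0.42 ± 0.36 (adjusted p = 0.769). pgr, the progesterone receptor, was 3.04, 3.74 and 2.97 FPKM at day 120 and 1.54, 2.77 and 1.84 FPKM at day 150, without overlap (-0.49 ± 0.20, adjusted p = 0.494). cyp17a2, a steroid hydroxylase, was 20.3, 19.3 and 20.1 FPKM at day 120 and 26.2, 37.7 and 23.5 FPKM at day 150, also without overlap but in the other direction (0.50 ± 0.27, adjusted p = 0.619). esr1, an oestrogen receptor, differed by -0.02 ± 0.16. Over the 14 tested genes of 21 listed, the median was -0.04 with 5 higher and 9 lower, and without replicate 2 it was 0.00 with 7 higher and 7 lower.

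Of 12 tested genes of thyroid hormone handling 8 were higher and 4 lower on average. In each direction 1 was at an unadjusted p under 0.05, beside 4.76% higher and 4.17% lower of all genes. The median of the 12 genes was 0.16, and 0.02 without replicate 3 of day 150. dio2, the deiodinase that makes active thyroid hormone, was 1.27, 1.61 and 1.36 FPKM at day 120 and 1.02, 1.49 and 2.98 FPKM at day 150. thrb, a thyroid hormone receptor, was 16.1, 18.1 and 19.1 FPKM at day 120 and 21.4, 23.3 and 21.0 FPKM at day 150 (0.29 ± 0.13, adjusted p = 0.543). Of 31 clock genes tested 23 were higher on average, where 50.8% of all genes were, with a median of 0.09 and 1 gene in each direction at an unadjusted p under 0.05. per1, a clock repressor that also responds to glucocorticoid, was 9.06, 11.03 and 13.1 FPKM at day 120 and 17.7, 16.8 and 10.9 FPKM at day 150 (0.41 ± 0.17, adjusted p = 0.508), and per2 (LOC101161338) had the opposite sign, -0.40 ± 0.16. The FKBP5-like gene LOC101157675, induced by glucocorticoid in mammals, was 5.02, 7.05 and 5.82 FPKM at day 120 and 4.21, 3.93 and 4.11 FPKM at day 150, without overlap (-0.44 ± 0.15, adjusted p = 0.454). The median of the 21 glucocorticoid-responsive genes tested was -0.005, with 9 higher and 12 lower. egr1, an immediate early gene, differed by -0.06 ± 0.14, and the 25 immediate early genes had a median of -0.03 and none at an unadjusted p under 0.05.

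Genes averaging 5 FPKM or more over the 6 libraries and with non-overlapping groups were ranked by p. Uncharacterized or hypothetical genes without a gene symbol were left out of this ranking. Of the rest, the 12 with the smallest p in each direction had adjusted p from 0.302 to 0.384. The 12 higher genes differed by 0.31 to 0.94 and the 12 lower ones by -2.03 to -0.29 on the log2 scale. All kept their sign without replicate 2, which the choice of non-overlapping groups had fixed in advance. pold3, a subunit of the DNA polymerase delta, had 8.61, 7.17 and 8.39 FPKM at day 120 and 11.2, 13.4 and 11.7 FPKM at day 150, all above the highest of the other days, 10.3 FPKM (0.53 ± 0.10, adjusted p = 0.302). NDNF (LOC101163105), a secreted factor that acts on neurons in mice, had 5.89, 9.64 and 11.5 FPKM at day 120 and 17.4, 13.7 and 14.8 FPKM at day 150, also above the other 17 libraries (0.74 ± 0.15, adjusted p = 0.302). In the other 10 of these higher genes the day 150 values were not all outside the 14 other libraries. They included asic4, a member of the acid-sensing channel family, calcrl, a receptor for calcitonin gene-related peptide and adrenomedullin, and rrp8, a nucleolar factor of ribosomal RNA processing. calcrl illustrates the other way round: its day 120 values, 22.7, 25.4 and 23.5 FPKM, were all below the 14 other libraries, and its day 150 values, 30.2, 29.8 and 30.1 FPKM, were close to their median of 31.0 FPKM.

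On the lower side tfpi2, an inhibitor of serine proteases, was 19.4, 16.6 and 18.5 FPKM at day 120 and 8.48, 7.83 and 11.95 FPKM at day 150. As with lhb, the day 120 libraries exceeded the 14 others, whose median was 9.99 FPKM, and the day 150 libraries lay among them (-0.90 ± 0.16, adjusted p = 0.302). Gap junction beta-1 (LOC101163022), a connexin of myelinating cells in mammals, was 13.9, 10.3 and 9.77 FPKM at day 120 and 5.10, 4.10 and 6.64 FPKM at day 150 (-0.98 ± 0.21, adjusted p = 0.302). pts, an enzyme of tetrahydrobiopterin synthesis, which the monoamine-making hydroxylases need, was 11.2, 10.8 and 12.1 FPKM at day 120 and 8.09, 7.70 and 8.74 FPKM at day 150. Profilin-2 (LOC101161232), an actin-binding protein of neurons, was 87.3, 69.5 and 87.7 FPKM at day 120 and 56.2, 59.5 and 58.9 FPKM at day 150, below all 17 other libraries (-0.47 ± 0.11, adjusted p = 0.368). For 7 of the 12 lower genes the day 120 mean was farther than the day 150 mean from the median of the other days; for 9 of the 12 higher genes it was the day 150 mean. Over all genes tested, the 3 day 150 libraries lay above the 14 libraries of days 0 to 90 in 103 genes (0.65%) and below in 43 (0.27%). The 3 day 120 libraries lay above them in 57 genes (0.36%) and below in 35 (0.22%). The shares that chance would give were not computed.

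**Figure D3:**
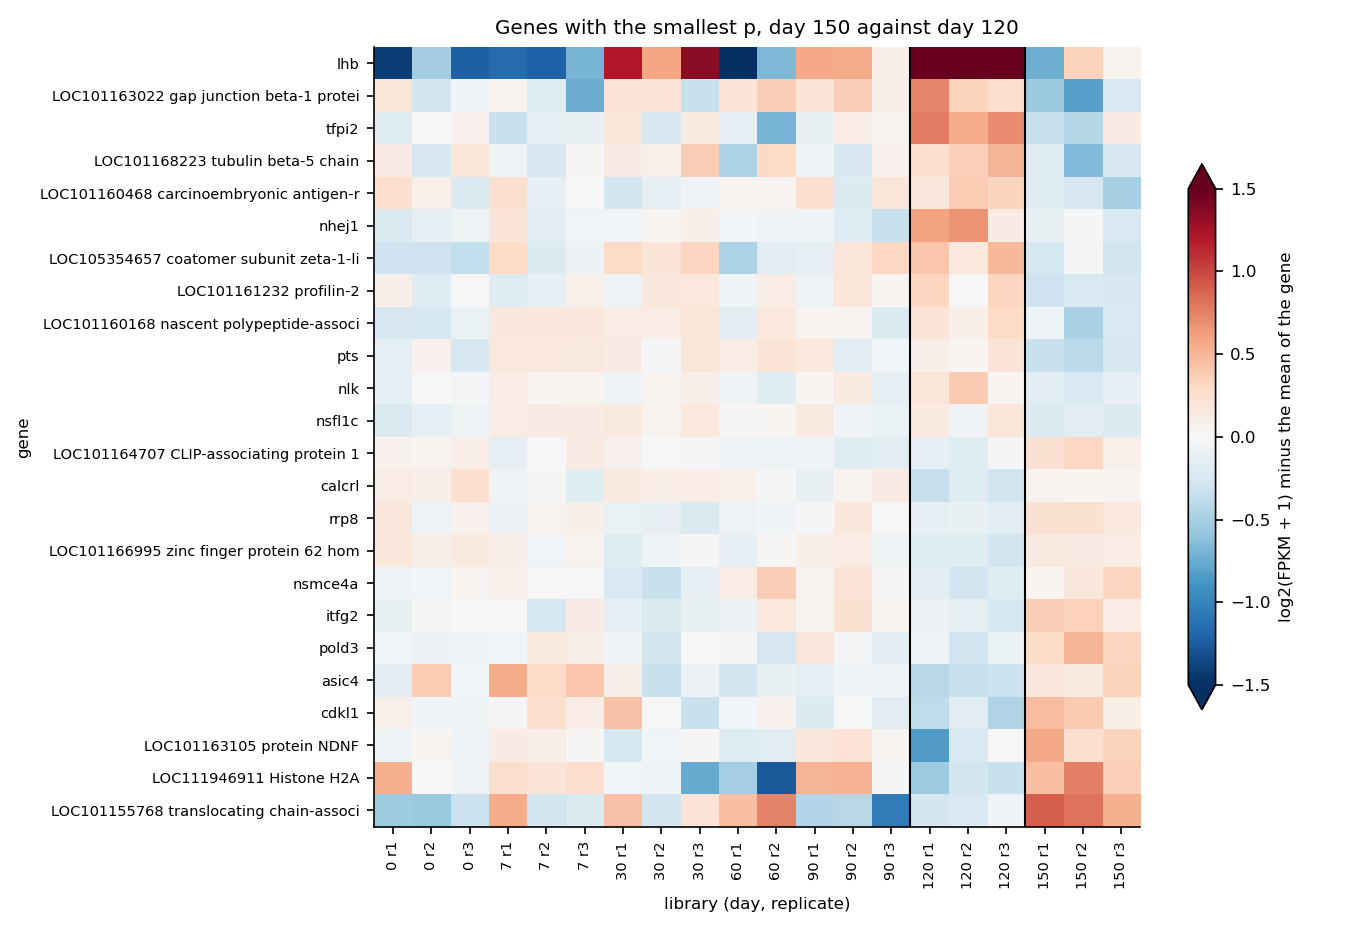
Colour gives log2(FPKM + 1) minus the mean of the gene over the 20 libraries for the 24 genes ranked first by p. Uncharacterized genes without a gene symbol were left out. Libraries are in columns by day and replicate, with black lines around day 120. The genes were chosen for this contrast between the day 120 and day 150 columns; in the columns of the other days most stand between the colours of the 2 days.

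Gene groups of cell metabolism differed by small amounts that many members shared. Of 82 tested subunits of oxidative phosphorylation, which respiratory chain complexes and ATP synthase are built from, 64 were lower and 18 higher at day 150, where 50.8% of all genes were higher. Their median was -0.13, with 14 lower and 1 higher at an unadjusted p under 0.05, beside 4.17% and 4.76% of all genes. None of the subunits passed the test. The cytochrome b-c1 complex subunit 1 (LOC101157209) was 72.3, 71.5 and 79.2 FPKM at day 120 and 65.3, 58.6 and 58.7 FPKM at day 150 (-0.29 ± 0.08, adjusted p = 0.384). Summed FPKM of the 82 genes was 7992, 8843 and 9139 at day 120 and 7943, 8194 and 7573 at day 150. The groups overlapped in this sum, as replicate 2 of day 150 was above replicate 1 of day 120. Over the 14 other libraries the sum ran from 7194 to 8313 FPKM. The day 150 libraries lay inside that range, and replicates 2 and 3 of day 120 lay above it. The count of 14 was 26 without replicate 1 of day 120, and 9 and 8 without replicate 3 of day 120 or of day 150.

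Chaperones of the endoplasmic reticulum, which fold secreted proteins such as the pituitary hormones, had 33 of 42 tested members lower and a median of -0.11. Of all genes 50.8% were higher on average. At an unadjusted p under 0.05 there were 7 lower and 1 higher, beside 4.17% and 4.76% of all genes. Calreticulin (LOC101169735), a calcium-binding chaperone, was 28.3, 23.4 and 28.3 FPKM at day 120 and 19.5, 16.2 and 19.5 FPKM at day 150 (-0.51 ± 0.15, adjusted p = 0.391). manf, a secreted protein of the unfolded protein response, was 11.6, 9.64 and 13.4 FPKM at day 120 and 6.49, 6.78 and 9.78 FPKM at day 150 (-0.54 ± 0.15, adjusted p = 0.384). The disulfide isomerase TMX3-like gene (LOC101157158) went against the group, at 0.16, 0.41 and 0.20 FPKM at day 120 and 0.85, 2.67 and 4.35 FPKM at day 150. The count of 7 was 4 without replicate 1 of day 120 or replicate 2 of day 150. Cytosolic heat shock proteins and chaperonins had 22 of 34 lower and a median of -0.10, which was 0.01 without replicate 3 of day 120, the library with the highest sum over these genes. hsf1, the heat shock transcription factor, was 78.1, 78.7 and 91.2 FPKM at day 120 and 108, 97.1 and 98.6 FPKM at day 150 (0.29 ± 0.12, adjusted p = 0.508).

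Cytosolic ribosomal proteins had the opposite sign, but the size rested on replicate 2. Of 58 tested 54 were higher on average at day 150, where 50.8% of all genes were. Their median was 0.13, and 9 were higher at an unadjusted p under 0.05, beside 4.76% of all genes. Without replicate 2 of day 150 the median was 0.04, 42 were higher and none was at that p, whereas without replicate 3 there were 23. That count was also 4 and 2 without replicates 1 and 2 of day 120 and 5 without replicate 1 of day 150. rpl23a was 809, 756 and 835 FPKM at day 120 and 1029, 1067 and 857 FPKM at day 150 (0.29 ± 0.11, adjusted p = 0.476). The summed FPKM of the 58 genes was 26497, 26249 and 28615 at day 120 and 29383, 33827 and 26767 at day 150, so replicates 1 and 2 were above and replicate 3 was inside the day 120 range. Across the 14 other libraries the sum ran from 26706 to 32149 FPKM.

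Lists of the nerve cell membrane and of chromatin had medians between 0.05 and 0.08, beside 0.0035 for all genes, and are given against the shares of all genes: 50.8% higher on average, and 4.76% higher and 4.17% lower at an unadjusted p under 0.05. Of 104 voltage-gated channel genes tested 67 were higher, with a median of 0.08 and 8 higher and 3 lower at that p. scn3b, a sodium channel subunit, was 49.7, 50.8 and 52.2 FPKM at day 120 and 56.9, 68.7 and 62.2 FPKM at day 150 (0.29 ± 0.08, adjusted p = 0.384). Without replicate 2 the 8 were 5, and without replicate 1 of day 150 the 3 were 6. Of 66 glutamate and GABA receptor genes 38 were higher, with a median of 0.05, or 51 and 0.09 without replicate 2. At that p 5 were higher and 0 lower, and the 5 were 3 without replicate 3 and 8 without replicate 1 of day 150. The NMDA receptor subunit 2D gene (LOC101164921) was 29.2, 35.6 and 40.3 FPKM at day 120 and 42.1, 57.9 and 43.2 FPKM at day 150 (0.43 ± 0.12, adjusted p = 0.384). Of 82 histone-modifying enzymes 60 were higher, with a median of 0.06 and 7 higher and 1 lower at an unadjusted p under 0.05, or 4 and 0 without replicate 2. kat5, an acetyltransferase, was 16.1, 15.4 and 16.1 FPKM at day 120 and 17.4, 19.8 and 17.5 FPKM at day 150 (0.19 ± 0.07, adjusted p = 0.456). dot1l, the histone H3 lysine methyltransferase, was 38.8, 38.6 and 39.4 FPKM at day 120 and 36.7, 50.2 and 40.4 FPKM at day 150, a difference of 0.11 that was -0.015 without replicate 2.

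Myelin genes were lower at day 150, in part through replicate 2. Of 20 tested genes of myelin and oligodendrocytes 17 were lower, where 50.8% of all genes were higher. Their median was -0.22, and 6 were lower at an unadjusted p under 0.05, beside 4.17% of all genes. Without replicate 2 of day 150 the median was -0.11 with 3 at that p, and without replicate 1 of day 120 it was -0.12, also with 3. A myelin basic protein-like gene (LOC101159204) was 846, 647 and 499.7 FPKM at day 120 and 420.4, 436 and 371 FPKM at day 150. All 3 day 150 values were below the other 17 libraries of the series (-0.67 ± 0.21, adjusted p = 0.418), and the difference was -0.72 without replicate 2. omg, an oligodendrocyte-myelin glycoprotein, was 6.23, 7.15 and 3.49 FPKM at day 120 and 2.72, 2.90 and 3.38 FPKM at day 150. mpz, a compact myelin protein, was 416, 316 and 208 FPKM at day 120 and 249, 112 and 228 FPKM at day 150, so replicate 3 of day 120 lay below replicates 1 and 3 of day 150. The summed FPKM of the 20 genes was 3612, 3063 and 1829 at day 120 and 2329, 1543 and 2167 at day 150. Replicate 3 of day 120 and replicates 2 and 3 of day 150 thus had the 3 lowest sums of the series, in which the other days ran from 2168 to 3629 FPKM.

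Among markers of other cells, neuron and vessel genes leaned lower by small amounts, and their counts at an unadjusted p under 0.05 fell without replicate 2 of day 150. The other lists moved with single libraries. The 24 general neuron genes had a median of -0.06, and -0.03 without replicate 2. Of these 6 were higher and 18 lower, where 50.8% of all genes were higher. At an unadjusted p under 0.05 there were 3 lower and 0 higher, beside 4.17% and 4.76% of all genes. Without replicate 2 of day 150 there were 0 in either direction, and 10 of the 24 genes were higher and 14 lower. nefh, a neurofilament, was 15.9, 14.6 and 15.3 FPKM at day 120 and 14.4, 11.2 and 9.45 FPKM at day 150 (-0.38 ± 0.15, adjusted p = 0.494). Of 21 vessel, pericyte and meninges genes 14 were lower, with a median of -0.10. At an unadjusted p under 0.05 there were 3 lower and 1 higher, and 1 and 0 without replicate 2 of day 150. kdr, a receptor for vascular growth factor, was 6.47, 8.25 and 6.05 FPKM at day 120 and 4.73, 2.78 and 5.42 FPKM at day 150 (-0.60 ± 0.18, adjusted p = 0.395). The 10 red blood cell genes had a median of 0.36, which was 0.09 without replicate 2 and 0.14 without replicate 1 of day 120. Their summed FPKM was 2278, 3378 and 2769 at day 120 and 2312, 5857 and 4113 at day 150, within the 693 to 7056 FPKM of the other days, and 1 of the 10 genes was at 0 in replicate 1 of day 120 and none in the other 5 libraries. The 12 microglia and leukocyte genes had a median of -0.07, and 0.07 without replicate 2. The part of these shifts in cell markers in the differences of other genes was not tested.

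Genes of the interferon response and antigen presentation had no common direction, with 20 of 51 tested higher and a median of -0.06. A gene similar to interferon alpha-inducible protein 27 (LOC110017567) was lower at day 150 by slightly more than lhb, at 131, 369 and 261 FPKM at day 120 and 25.9, 75.6 and 83.4 FPKM at day 150. The groups did not overlap and 2 of the day 120 values exceeded the highest of the other days, 157 FPKM (-2.07 ± 0.52, adjusted p = 0.384). A related gene (LOC101155558) was 91.8, 319.9 and 69.3 FPKM at day 120 and 35.6, 99.9 and 40.3 FPKM at day 150, and these 2 copies may share reads. orla-uaa, a class I histocompatibility gene, was 9.71, 15.95 and 7.76 FPKM at day 120 and 33.4, 29.1 and 14.6 FPKM at day 150 (1.11 ± 0.48, adjusted p = 0.520).

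**Figure D4:**
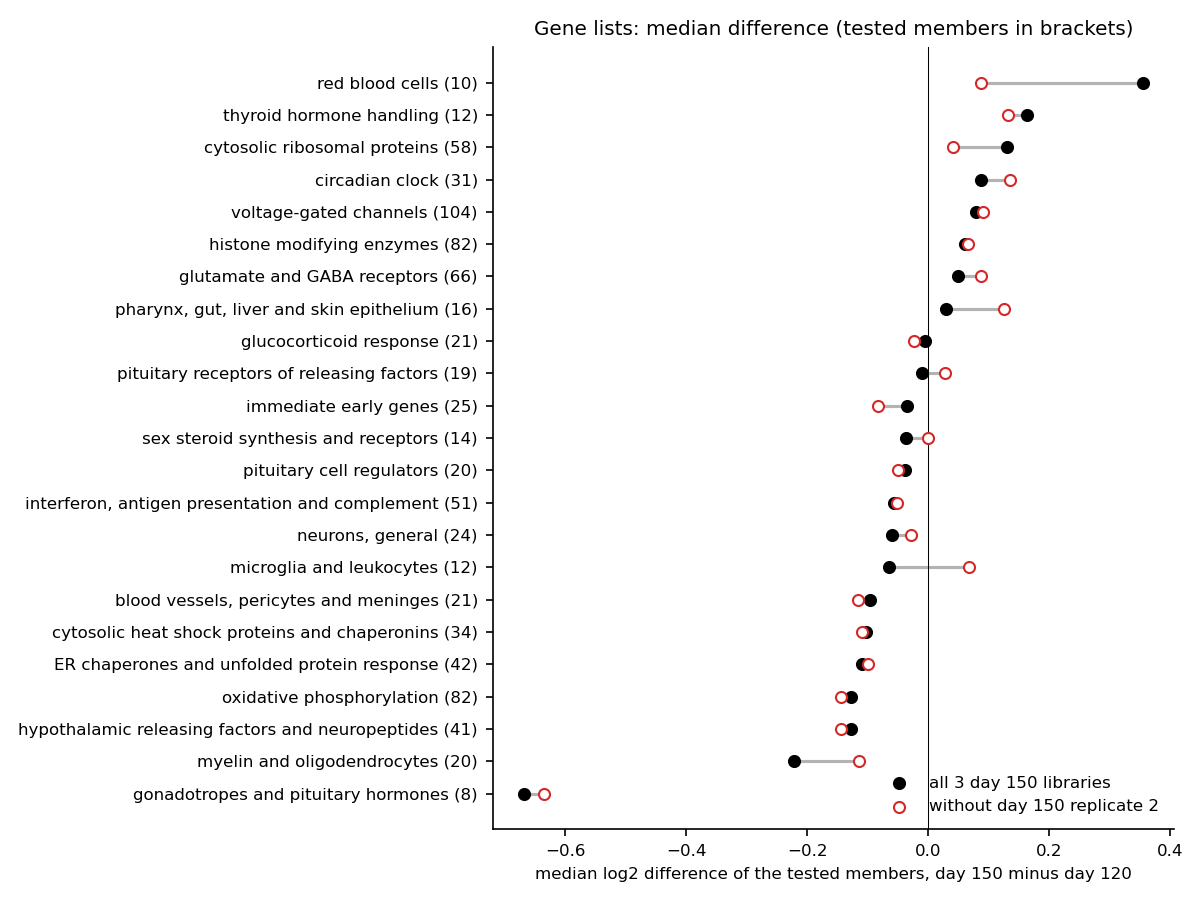
Each row is a gene list with the number of tested members in brackets, and the horizontal axis is the median log2 difference of its members (day 150 minus day 120); filled points use all 3 day 150 libraries and open points leave out replicate 2. Pituitary hormones lie at -0.67, and the points for red blood cells, myelin and ribosomal proteins move most toward 0 when replicate 2 is left out.

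Replicate 2 of day 150 had high and low genes of its own, as other libraries did. In it 13 genes were more than 1 log2 unit above every other library and 6 that far below. The other 19 libraries had 2 to 17 such high genes, with a median of 6. Such low genes numbered 25 in day 60 replicate 1 and 0 to 4 in each remaining library, so day 150 replicate 2 came next after day 60 replicate 1. Among 10974 genes compared, 80 were in replicate 2 more than 1 log2 unit above the mean of replicates 1 and 3 and 67 more than 1 below. With uncharacterized or hypothetical genes without a gene symbol left out, the 12 genes farthest in each direction were examined by value. Of each 12, 8 lay outside the range of the other 19 libraries. They were chosen for their distance in this library, so that count cannot set it apart from other libraries. A keratin type I gene (LOC101159648), of the kind made in epithelia, was 44.9 FPKM in replicate 2 and 3.54 and 2.05 FPKM in replicates 1 and 3, with 1.21 to 3.82 FPKM in all other libraries. A keratin type II gene (LOC101167707), named from a list of epithelial genes, was not among these 24. It had 24.9 FPKM in replicate 2, 0.46 and 1.36 FPKM in the other day 150 libraries, and at most 3.32 FPKM on the other days. The 16 tested genes of pharynx, gut, liver and skin epithelium were not high as a set in replicate 2. Their summed FPKM was 2492 there, 4589 and 4368 in replicates 1 and 3, and 3190 to 4988 on the other days. The median deviation of these genes from their means over the series was 0.02 in replicate 2. A ferritin middle subunit gene (LOC101171335), an iron store, was 77.5 FPKM in replicate 2, against 8.16 and 37.6 FPKM. On the low side were gnrh3, at 8.73 FPKM, a GABA transporter (LOC101161687) at 5 FPKM against 19.5 and 25.6 FPKM, and lgals3bp at 3.30 FPKM against 13.8 and 12.5 FPKM. For 9 of these 24 genes the sign of the difference between the days turned when replicate 2 was left out.

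**Figure D5:**
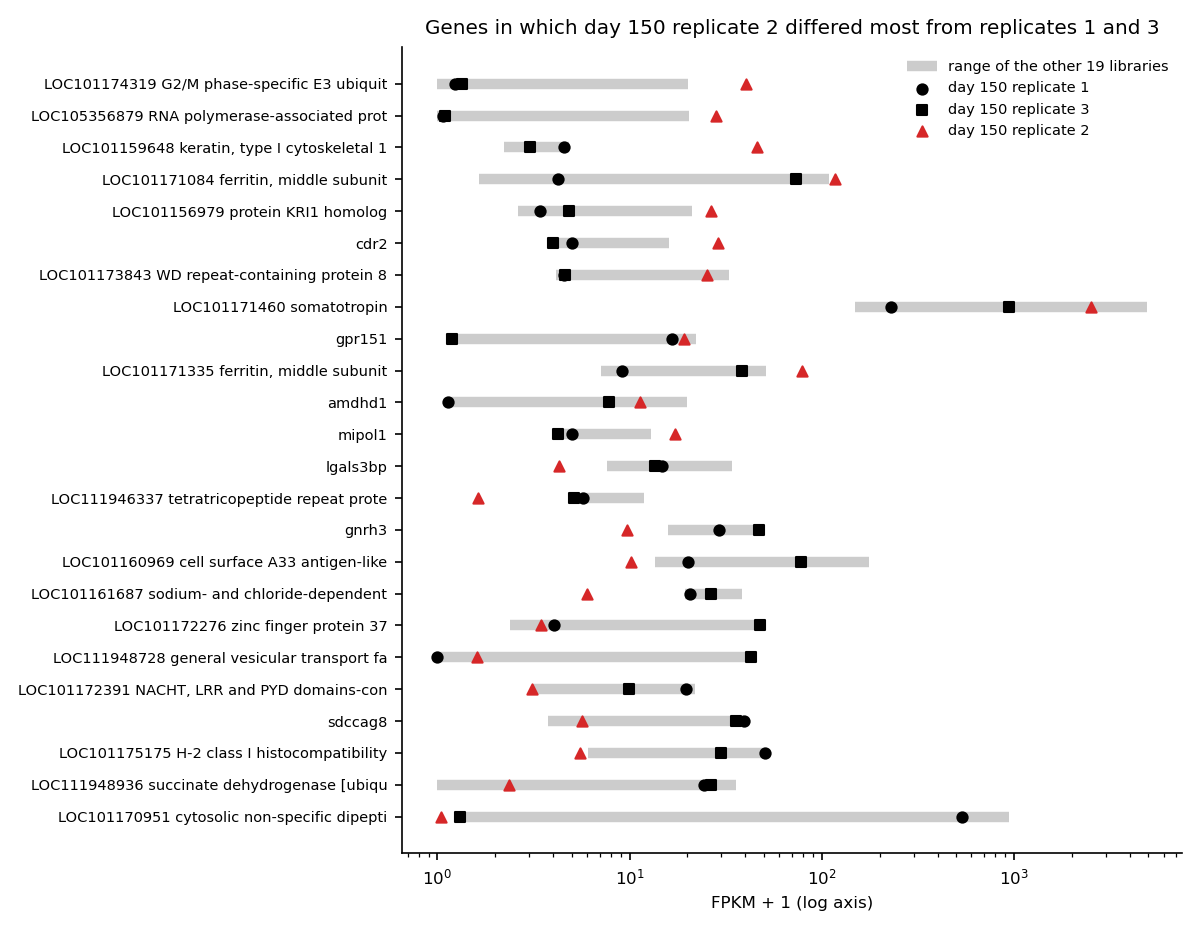
FPKM + 1 on a log axis for the 24 genes in which day 150 replicate 2 (red triangles) lay farthest from replicates 1 and 3 (black circles and squares). Uncharacterized genes without a gene symbol were left out. Grey bars span the other 19 libraries. In 16 of the genes the triangle lies beyond the grey bar.

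A gene passed only when the spread or the libraries were chosen differently. With the spread taken from the 6 compared libraries alone, 2 genes passed, both lower and both chosen here after their values were seen. The first, a voltage-gated potassium channel gene of the KCNA1 kind (LOC105353871), was 49.9, 50.2 and 48.8 FPKM at day 120 and 17.5, 19.5 and 15.8 FPKM at day 150 (-1.45, adjusted p = 0.00787 with that spread and 0.461 with the spread of all days). The second, mitochondrial creatine kinase U-type (LOC101156742), an enzyme that passes phosphate from ATP to creatine, was 8.31, 5.62 and 6.98 FPKM at day 120 and 0.32, 0.29 and 0.36 FPKM at day 150 (-2.58, adjusted p = 0.00787 and 0.397). On the other days the first ranged from 17.2 to 95.7 FPKM and the second from 0.08 to 7.58 FPKM, so that libraries of those days reached both levels. Without replicate 1 of day 150, vang-like protein 1 (LOC101170632), of the planar cell polarity pathway, passed with -0.80 ± 0.09 (adjusted p = 0.00569). It was 17.5, 19.6 and 21.2 FPKM at day 120, 20.1, 10.9 and 10.6 FPKM at day 150, and 8.73 to 11.4 FPKM on the other days, so that 4 of the 20 libraries held the higher level.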

How the data were processed

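Per the file headers, the deposited values are FPKM, 1 column per library in a single table from the authors. The submitters' processing notes name RSEM 1.2.12 and Bowtie2 2.2.5. Neither the build nor the annotation is given in the sources used here. Gene names come from the table and the RefSeq gene table of assembly ASM223467v1, which held 21722 of the 22615 identifiers; 893 are predicted genes, and 9 symbols turned into dates were restored. RSEM divides reads between near-identical copies, so families may be split. The deposited FPKM were transformed here to log2(FPKM + 1), which understates differences of low genes.

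limma 3.58.1 (R 4.3.3) fitted 1 mean per day to the 20 libraries (13 residual degrees of freedom, median residual SD 0.16, prior variance following the level). Day 150 minus day 120 was tested two-sided, with Benjamini-Hochberg adjustment over the 15947 genes and a threshold of 0.05. An exact permutation of 3 against 3 libraries could not reach that threshold. The code was tested on simulated data.

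Genes were named by rule: a set of endocrine, clock and activity genes, the 12 smallest p per direction among non-overlapping genes of at least 5 FPKM, up to 4 members per list by p, and the 12 genes per direction farthest out in day 150 replicate 2. Uncharacterized or hypothetical genes without a gene symbol were left out of both choices of 12 per direction. Other list members named for contrast, and the 3 genes called under other settings, were chosen after their values were seen. The comparison and all lists were chosen with earlier results of these data known, and entries that a list matched by mistake were removed by name. Lists are described by counts and medians and were not tested. Alternatives were another pseudocount, other filters, scalings, priors and weights, the spread of the 6 libraries, and leaving out libraries.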

Additional observations from a re-analysis of the deposited data

How the results depend on the processing

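The count of genes past the threshold, 0, was recomputed under 30 settings. It was 2 with the spread of the 6 compared libraries and 0 to 1 when each library was left out, the 1 gene appearing without day 150 replicate 1. It was 0 under the other settings tried. Over the left-out libraries the smallest adjusted p ran from 0.00569 to 0.44 and genes at an unadjusted p under 0.05 from 1082 (without day 150 replicate 2) to 1682 (without day 150 replicate 3), against 1424 in all. Of the 1424, 697 were also at that p without day 150 replicate 2.

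Of 3936 recomputed values of 132 genes, 16 in 8 genes changed sign and 3 passed the threshold. With each library left out in turn, esr1 ran from -0.16 to 0.16, gnrh3 from -0.79 to 0.35, dio2 from -0.10 to 0.39, egr1 from -0.17 to 0.027, dot1l from -0.015 to 0.21, spi1 from -0.37 to 0.14, the macrophage-expressed gene LOC101169041 from -1.86 to 0.30 and ptprc from -0.36 to 0.16. Without day 60 replicate 1 and day 150 replicate 2 together, gnrh3 was 0.35, egr1 0.027, dot1l -0.015 and ptprc 0.16, and with library weights ptprc was 0.0496. The cause was not tested, beyond the fewer libraries.

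Medians changed sign under some setting in 8 of 23 lists: pituitary cell regulators, pituitary receptors, sex steroid genes, glucocorticoid response, immediate early genes, heat shock proteins, microglia and epithelium. No paired analysis was possible because the labels give no replicate numbers shared between days. FPKM hides depth, so no limit of detection can be given.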

Other observations

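Some genes were on in a few libraries of both days and near 0 in the rest, and were noticed after their values were seen. gnrh2, the form of gonadotropin-releasing hormone made in the midbrain of vertebrates, was listed at 0, 15.8 and 5.84 FPKM in the day 120 libraries and at 7.07, 0.12 and 0 FPKM in those of day 150. A cocaine- and amphetamine-regulated transcript gene (LOC100533501) had the same order of libraries, at 0, 13.1 and 2.71 FPKM and then 5.53, 0.21 and 0 FPKM. A further gene of that family (LOC100533498) was listed at 0, 16.8 and 4.50 FPKM and then at 4.01, 0.56 and 0.36 FPKM. Cytosolic non-specific dipeptidase (LOC101170951) was 898, 2.42 and 0.85 FPKM at day 120 and 538, 0.04 and 0.31 FPKM at day 150. In all 4 genes at least 1 library of each day was high and at least 1 near 0, so the days overlapped.

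In day 150 replicate 2, dio1, a deiodinase, stood at 17.2 FPKM, against 5.35 and 4.67 FPKM in replicates 1 and 3 and 4.30, 5.64 and 4 FPKM at day 120. Its other high genes included a second ferritin middle subunit gene (LOC101171084), at 115 FPKM against 3.22 and 72.6 FPKM, with 108 FPKM in day 120 replicate 2.

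A set of 52 entries in the table share the description of 1 uncharacterized protein. Of the 42 that were tested 35 were higher on average at day 150, with a median of 0.45, and 31 were higher without replicate 2, with a median of 0.19; none passed the test. Their summed FPKM was 85.6, 86.1 and 100.2 at day 120 and 128, 184 and 111 at day 150, within the 66.5 to 211 FPKM of the other days. Reads may be shared between these entries.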
